A study of Homo sapiens with 6 samples.

Results

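The IKK-family kinases and the proteins that adapt or restrain them were followed in the established human line BL-2, whose origin is a Burkitt lymphoma, a tumour of germinal centre type B cells. The group holds 10 genes: the kinases IKBKE, TBK1, CHUK and IKBKB, the kinase scaffold IKBKG, the adaptor TANK, the feedback regulator TNFAIP3 (A20), the A20-binding proteins TNIP1 and TNIP2 (ABIN-1 and ABIN-2), and the deubiquitinase CYLD. They were chosen by their place in this pathway, at a time when the differences between lipopolysaccharide (LPS) and control arrays were known, above all that of IKBKE. Every probe set that the platform annotation gives 1 of these symbols and no other was taken, which made 27 of the 54613 probe sets tested and 10 of the 19775 genes named on the array. The untreated group (control) and the group given LPS for 6 h had 3 arrays each. No time is given for the controls, so the groups may not be matched in time. All arrays came from this 1 line, and the labels give no dose of LPS and do not say whether the samples were separate cultures, so p-values measure no more than how these samples varied, which may be technical variation.

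The kinases encoded by CHUK and IKBKB phosphorylate the inhibitors that hold NF-kB in the cytoplasm, and they do so bound to NEMO, the product of IKBKG, which reads ubiquitin chains. IKBKE and TBK1 form a second pair of kinases, best known for phosphorylating interferon regulatory factors, and TANK is one of the adaptors that carry them. A20 edits and binds ubiquitin chains in the same complexes with help from the ABINs, and CYLD removes chains, so these proteins limit the signal that the kinases pass on. LPS, from the outer membrane of Gram-negative bacteria, reaches this machinery through Toll-like receptor 4 in cells that carry it, and TNFAIP3 is a textbook NF-kB target gene whose promoter holds NF-kB sites.

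Promoter sequence is shown for the members whose window matched the NF-kB consensus, and for IKBKE, which had the largest difference between LPS and control. Whether members with a match moved otherwise than those without was not tested. Sequences are those of RefSeq for human assembly GRCh38.p14, from 250 bases before to 50 bases after a start site. The table held 16 such windows for 9 of the 10 genes (none for IKBKB). Both strands were searched for the NF-kB consensus, a motif of 10 letters. It matched in 5 of the 16 member windows, or 31.2%, and in 11.3% of all 35116 windows. A match is a run of letters and no evidence of binding. Capitals mark the matches, and each sequence is written 5′ to 3′ on the gene's strand.

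The TNFAIP3 stretch is chr6:137867109-137867258 on the plus strand, the 150 bases just before the start site, which lies within the gene's annotated span. It holds 2 matches, which begin 67 and 55 bases before the start, and 2.04% of all windows hold at least 2.
TNFAIP3: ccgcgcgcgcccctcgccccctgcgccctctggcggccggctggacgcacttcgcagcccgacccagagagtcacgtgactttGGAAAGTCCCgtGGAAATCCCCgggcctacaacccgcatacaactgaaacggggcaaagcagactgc
The IKBKE stretch is chr1:206470326-206470475 on the plus strand, likewise the 150 bases before the start. No match lies in it or in the rest of its window, which says only that these letters are not there.
IKBKE: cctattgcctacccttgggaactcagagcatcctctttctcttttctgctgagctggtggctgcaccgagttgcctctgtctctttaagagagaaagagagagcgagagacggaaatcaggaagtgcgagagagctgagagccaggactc
The TNIP1, TANK and CYLD stretches are the 60 bases around 1 match each, at chr5:151081042-151081101 on the minus strand, chr2:161136892-161136951 on the plus strand and chr16:50741872-50741931 on the plus strand. The matches begin 42, 46 and 189 bases before the start site.
TNIP1: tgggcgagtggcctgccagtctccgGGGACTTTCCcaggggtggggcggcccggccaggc
TANK: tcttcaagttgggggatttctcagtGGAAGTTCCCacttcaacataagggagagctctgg
CYLD: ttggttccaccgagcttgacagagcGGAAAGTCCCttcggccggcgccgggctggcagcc

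Another CYLD window matched at its start site. The windows of TBK1, CHUK, IKBKG and TNIP2 held no match. The core of the interferon-stimulated response element, GAAA, NN and GAAA in a row on either strand, was in 0 of the 16 member windows and in 3.57% of all windows. TTCNNNGAA, the core of STAT sites, was in the TNIP2 window alone among members and in 7.66% of all windows.

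The values are 1 log2 number per probe set and array. All arrays share a median close to 6.45, and the brightest probe set of each of the 10 genes lay above the 75th percentile of all probe sets. Differences are LPS minus control on the log2 scale with the standard error (SE) and 95% interval of a limma fit over all 54613 probe sets, and adjusted p-values are Benjamini-Hochberg values of that fit. For the members these describe where each probe set stood in the whole fit and test nothing, since the list was made with this contrast known. RNA was taken from whole cultures, so fewer cells expressing a gene and less RNA per cell cannot be told apart.

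After 6 h with LPS, 2 of the 27 member probe sets were higher at an adjusted p under 0.05, and 0 were lower, where 0.13% of all probe sets were called higher and 0.134% lower. Both were those of IKBKE. At an unadjusted p under 0.05 there were 7, where 8.08% of all probe sets were. In 8 of the 27 every LPS value lay above every control value, in 0 every LPS value lay below, and 13.4% of all probe sets had groups that did not overlap in either direction. The median difference was 0.06 over the 27 and 0.0029 over all probe sets, with 81.5% of the members' and 51.8% of all differences above 0. Probe sets of 1 gene were read on the same arrays and are not separate evidence, whether or not they read the same transcripts.

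**Figure D1:**
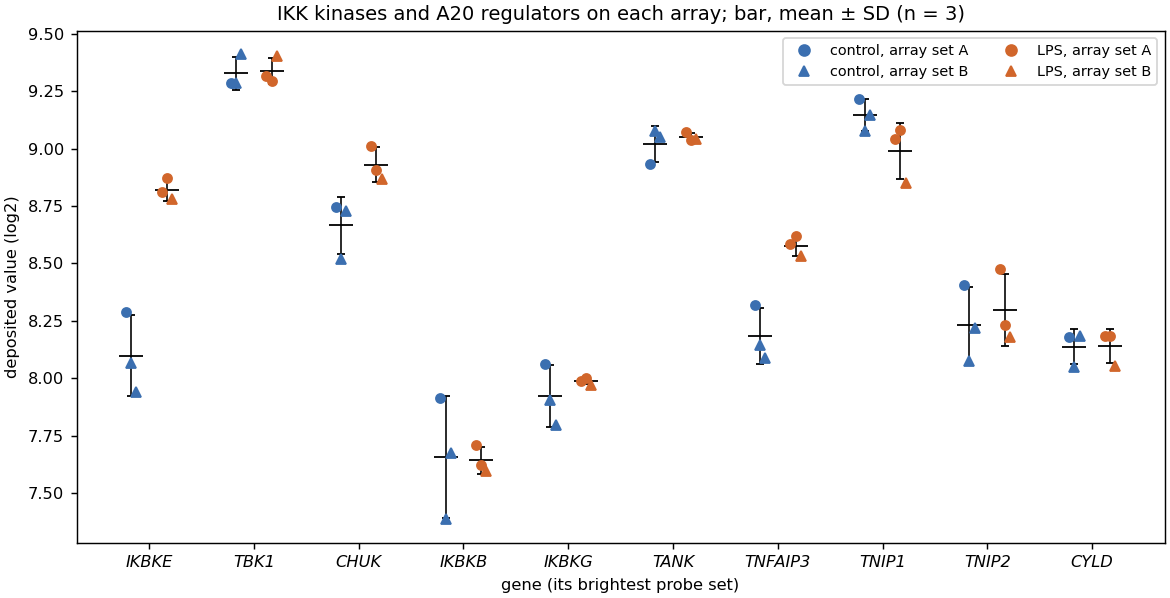
Deposited log2 value (vertical axis) of the brightest probe set of each gene on each of the 6 arrays; blue, control; orange, LPS; circles and triangles mark the array sets A and B; bars give the mean and SD of 3 arrays. The LPS values of IKBKE (8.78 to 8.87), TNFAIP3 and CHUK lie above all their control values, and those of the other 7 genes overlap.

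IKBKE, the inducible member of the TBK1-like pair, had the largest difference of the 10 genes. Its brightest probe set stood at 8.29, 8.06 and 7.94 in controls 1 to 3 and at 8.81, 8.87 and 8.78 in LPS arrays 1 to 3. The LPS values were closer together than the controls, and control 1 was the highest control. The difference was 0.72 (SE 0.0929, interval 0.52 to 0.92), or 1.65-fold (adjusted p = 0.00735, limma, n = 3 per group). The dimmer IKBKE probe set read 7.89, 7.81 and 7.75 in controls and 8.49, 8.37 and 8.50 with LPS, a difference of 0.64 (SE 0.0770, adjusted p = 0.00556), or 1.56-fold. Over the 6 arrays the 2 probe sets correlated at 0.969, a value that includes the group difference of both. Among the LPS arrays, LPS 2 was the highest by the brightest probe set and the lowest by the dimmer one. The 1.65-fold value is that of the brightest probe set alone.

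The IKBKE call depended on single arrays. With 1 array left out the difference of the brightest probe set ran from 0.64 to 0.82. Its sign could not turn, since the groups did not overlap. Without control 3 the brightest probe set was at 0.64 and the dimmer one at 0.60, each with an adjusted p of 0.0676. Without LPS 2 they were at 0.70 (adjusted p = 0.079) and 0.68 (adjusted p = 0.0353). With each of the other 4 arrays left out in turn both probe sets were called.

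TBK1, the constitutive partner kinase, stood at 9.28, 9.29 and 9.41 in controls and 9.32, 9.29 and 9.40 with LPS. The groups overlapped, and the difference was 0.01 with an interval from -0.17 to 0.19, which spans 0.888-fold to 1.14-fold. It has 1 probe set here. The interval of IKBKE, 0.52 to 0.92, lies above all of it, but no test of the difference between the kinases was made.

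TANK, which binds TBK1 and IKBKE, was read by 4 probe sets. The brightest gave 8.93, 9.08 and 9.05 in controls and 9.07, 9.04 and 9.04 with LPS, a difference of 0.03 (SE 0.0817). The next stood at 8.87, 8.76 and 8.70 against 9.12, 9.03 and 8.75, a difference of 0.19 (SE 0.101) in which LPS 3 sat among the controls. The third gave 0.14 (SE 0.0673) with groups that did not overlap, and the dimmest, at a control mean of 6.08, gave 0.03. The brightest TANK probe set correlated with the others at -0.181 to 0.097 over the arrays, while the second and the third correlated at 0.879 with each other.

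Among the kinases that act on the NF-kB inhibitors, CHUK was the one whose groups did not overlap. Its single probe set read 8.75, 8.52 and 8.73 in controls and 9.01, 8.91 and 8.87 with LPS. The difference was 0.26 (SE 0.0887, interval 0.07 to 0.45), or 1.2-fold, and it did not pass in the fit over all probe sets (adjusted p = 0.388).

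IKBKB, the partner of CHUK in the same complex, had 3 probe sets, all below 0 and none separated. The brightest spread over 7.92, 7.38 and 7.67 in controls, which is the widest control spread of the 10 genes by their brightest probe sets (SD 0.266), and over 7.71, 7.62 and 7.60 with LPS. Its difference was -0.01 (interval -0.24 to 0.22), and the others gave -0.10 (interval -0.32 to 0.11) and -0.07 (interval -0.21 to 0.08). The sign of the brightest turned without control 1, to 0.11, and without LPS 3, to 0.0081.

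IKBKG, which encodes NEMO, gave 8.06, 7.90 and 7.79 in controls and 7.99, 8.001 and 7.97 with LPS by its brighter probe set. The LPS values were close together (SD 0.0144) and lay inside the control range. The differences of its probe sets were 0.07 (SE 0.0806) and 0.05 (SE 0.0740). IKBKG has a near-identical pseudogene copy in the human genome, so probes for it may read both.

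**Figure D2:**
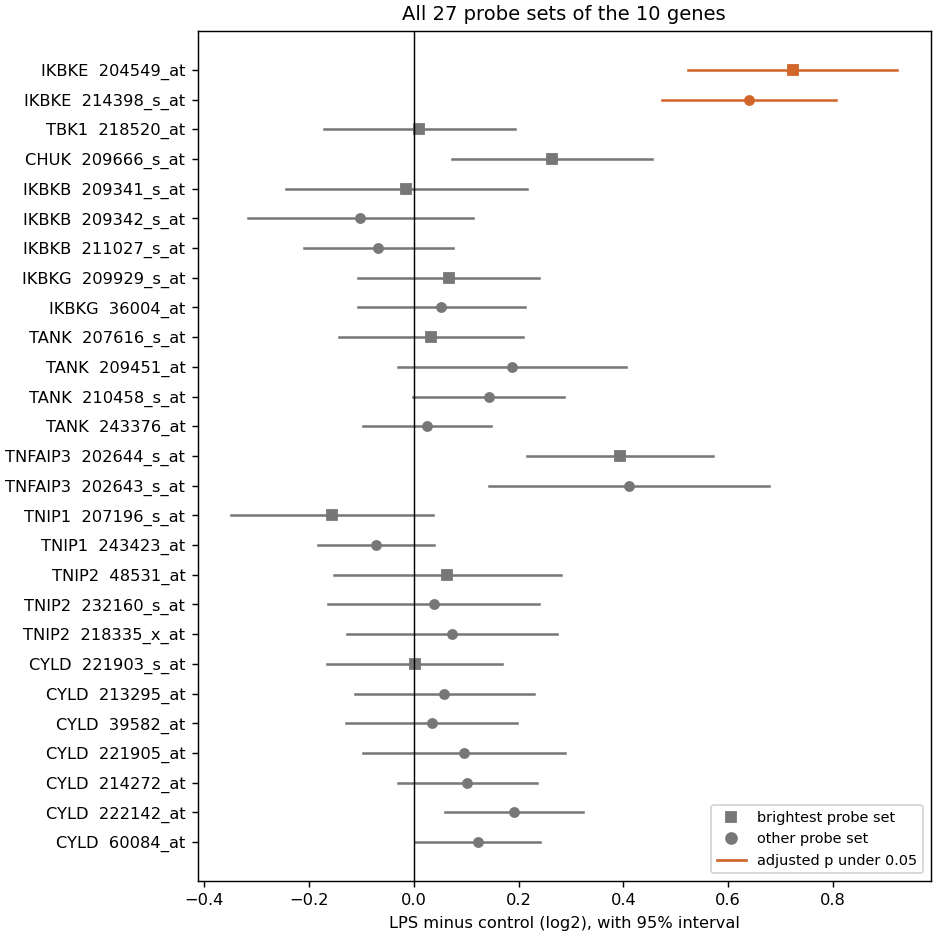
LPS minus control on the log2 scale (horizontal axis) for all 27 probe sets, grouped by gene; squares, brightest probe set of a gene; circles, the others; lines, 95% intervals; orange, adjusted p under 0.05. The pair of IKBKE probe sets, at 0.64 and 0.72, stands to the right of all others, followed by the TNFAIP3 pair at 0.39 and 0.41.

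Of the regulators that limit the signal, TNFAIP3 had the largest difference. A20, its product, is itself made in response to NF-kB. By the brighter probe set the controls stood at 8.32, 8.14 and 8.09 and the LPS arrays at 8.58, 8.62 and 8.53, with no overlap. The difference was 0.39 (SE 0.0829, interval 0.22 to 0.57), or 1.31-fold, with an adjusted p of 0.0788. The dimmer probe set gave 7.75, 7.33 and 7.41 in controls and 8.03, 8.09 and 7.61 with LPS, so LPS 3 lay below control 1. Its difference was of like size, 0.41, with a larger SE of 0.124 (adjusted p = 0.307).

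The arrays form sets A and B by their hybridisation controls. With the array set as a block, the brighter TNFAIP3 probe set was at 0.35 with an adjusted p of 0.0143. It also passed without control 1, at 0.46 (adjusted p = 0.0176), as did the dimmer one at 0.54 (adjusted p = 0.0447). With any other array left out it did not, at 0.35 to 0.42 (adjusted p from 0.105 to 0.472). The sign of the brighter probe set was the same in each of these fits, as it had to be with groups that did not overlap.

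The A20-binding proteins had small differences of opposite sign, none of them called. TNIP1, which recruits A20 to ubiquitin chains, read 9.22, 9.08 and 9.15 in controls and 9.04, 9.08 and 8.85 with LPS. The difference was -0.16 (SE 0.0896, interval -0.35 to 0.04), and LPS 3 was the lowest array. A dim second probe set, at a control mean of 6.18, gave -0.07. TNIP1 was the member with the lowest difference, and its values overlapped.

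TNIP2 was read by 3 probe sets that gave nearly the same picture. By the brightest, controls stood at 8.40, 8.08 and 8.22 and LPS arrays at 8.48, 8.23 and 8.18. The differences were 0.06, 0.04 and 0.07, each with an interval across 0, and the brightest correlated with the other 2 at 0.976 and 0.923 over the arrays. Control 1 and LPS 1 were the high arrays of their groups in all 3.

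CYLD, which strips ubiquitin chains from NEMO and its partners, had 7 probe sets, all above 0 and none called. The brightest read 8.18, 8.05 and 8.18 in controls and 8.18, 8.18 and 8.05 with LPS, a difference of 0.0015 (interval -0.17 to 0.17). The largest differences came from dim probe sets: 0.19 (SE 0.0611, adjusted p = 0.345) at a control mean of 6.19, and 0.12 (SE 0.0554) at 6.18, below the array medians. The former correlated with the brightest at -0.411 over the 6 arrays. The 4 between them in level gave 0.06, 0.03, 0.10 and 0.10, from the brightest down. Groups did not overlap in 3 of the 7: the 2 dimmest and the one at 0.10 with a control mean of 6.77. No test of a difference between the probe sets was made.

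IKBKE and TNFAIP3 had nearly the same profile over the 6 arrays by their brightest probe sets (Pearson r = 0.996, n = 6 arrays, a description that includes the group difference). The value holds for these probe sets alone. LPS 2 was the highest LPS array by the brightest IKBKE probe set and the lowest by the dimmer one. The TNFAIP3 probe sets correlated at 0.873 with each other. Among 12653 genes with a brightest probe set above the median level, TNFAIP3 was the second most like IKBKE. The first was CMPK1 (r = 0.998), a nucleotide kinase whose difference was 0.16. The next were HLA-F (0.991), an MHC class I chain, and TRMT11 and POLR1B (0.989 each), with differences of 0.35, 0.28 and 0.29. With 6 arrays high values are common: 321 genes had r above 0.9 with IKBKE. The lowest were MTIF3 (-0.996), MAPKAPK5-AS1 (-0.994) and PCGF2 (-0.993).

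From the side of TNFAIP3, the 5 most alike were TRMT11, CMPK1 and IKBKE (0.996 each), POLR1B (0.995) and SPTLC1 (0.993), and 359 genes had r above 0.9. MAPKAPK5-AS1 (-0.999), PPP2R5A (-0.995) and PLEKHA7 (-0.994) were the most opposite. Among the members, CHUK came next to the pair, at 0.856 with TNFAIP3 and 0.84 with IKBKE. Outside these 3, IKBKB and TNIP2 correlated at 0.815 and IKBKB and CYLD at 0.711.

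**Figure D3:**
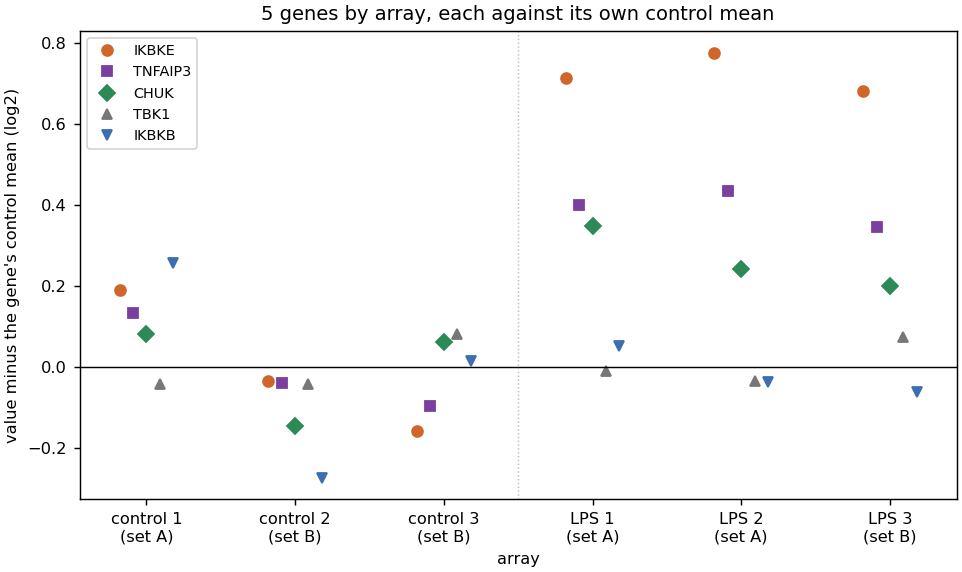
Value of 5 genes on each array minus the gene's own control mean (vertical axis, log2; brightest probe sets), by array along the horizontal axis with its array set. IKBKE and TNFAIP3 keep the same order over the controls, with control 1 at 0.19 and 0.135 and control 3 at -0.16 and -0.10. CHUK, TBK1 and IKBKB do not follow it. The order is not particular to the pair: IKBKG, not drawn, has it too (0.14, -0.02 and -0.13 in controls 1 to 3). The dimmer IKBKE probe set keeps it and the dimmer TNFAIP3 probe set does not.

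The array sets were read from 18 probe sets for transcripts that are added to each hybridisation. Set A held control 1, LPS 1 and LPS 2, and set B held control 2, control 3 and LPS 3, with a gap of 0.223 between them. What the sets stand for is not given by the labels. Within set A the brightest IKBKE probe set differed by 0.55 and within set B by 0.78, and with array set as a block it was at 0.66 (SE 0.0791, adjusted p = 3.39e-05). TNFAIP3 was at 0.28 and 0.41 within the sets and CHUK at 0.21 and 0.24. TNIP1 was at -0.16 and -0.26. Since all LPS values of IKBKE, TNFAIP3 and CHUK lie above all controls, their shared sign in the sets was fixed.

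The other genes were less even. IKBKB was at -0.25 in set A and 0.07 in set B, IKBKG at -0.07 and 0.12, TANK at 0.12 and -0.02, TNIP2 at -0.05 and 0.03, and CYLD at 0.0028 and -0.06. TBK1 was at 0.02 and 0.05. In all, 11 of the 27 probe sets had opposite signs in the sets. The share over all probe sets was not taken, so the count cannot be read as a trait of the members. With the block, 3 member probe sets were called, both of IKBKE and the brighter of TNFAIP3, where 1.34% of all probe sets were.

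**Figure D4:**
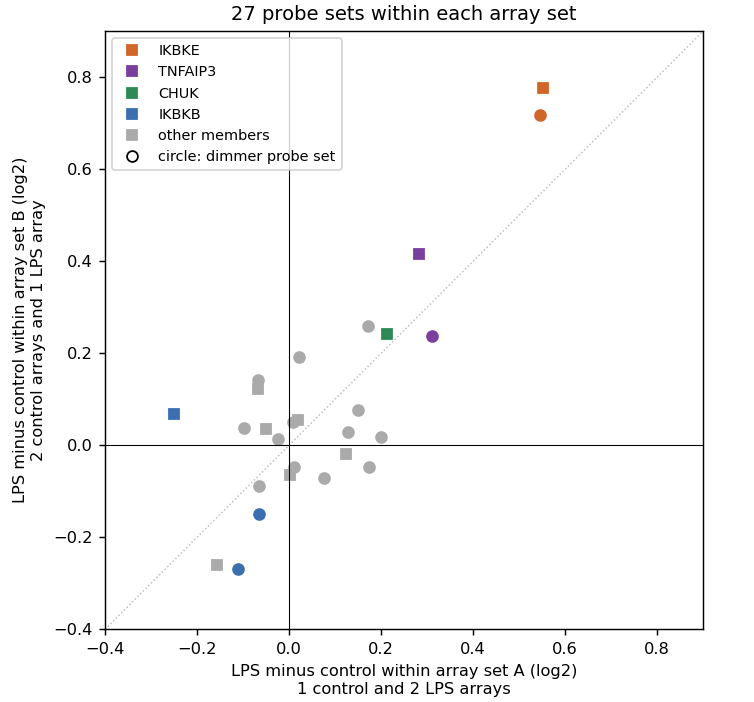
LPS minus control (log2) within array set A (horizontal axis, 1 control and 2 LPS arrays) and within set B (vertical axis, 2 controls and 1 LPS array) for the 27 probe sets; squares, brightest probe set of a gene; circles, dimmer ones; the dotted line marks equal values. IKBKE lies far out in both sets (0.55 and 0.78 for the brightest), and the brightest IKBKB probe set has opposite signs (-0.25 and 0.07).

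The members were also compared between the sets, which is not the contrast that the genes were chosen with. With LPS in the fit, 23 of the 27 probe sets had lower values in set B, with a median of -0.12, where 57.5% of all probe sets were lower with a median of -0.02. Probe sets of 1 gene are counted separately here, 7 of them of CYLD and 4 of TANK. The brightest of TBK1 and TANK were higher in set B, at 0.08 and 0.06. At an adjusted p under 0.05, 2 of 27 (7.41%) differed between the sets, against 4.54% of all probe sets. They were the dimmer TNFAIP3 probe set, at -0.41 (adjusted p = 0.000718, limma), and an IKBKB probe set at -0.26 (adjusted p = 0.0422). The brighter TNFAIP3 probe set was at -0.14 (adjusted p = 0.418) and that of IKBKE at -0.17 (adjusted p = 0.279). Control 1, the only control of set A, was the highest control in 20 of the 27, or 74.1%, and in 37.7% of all probe sets. Without control 1 the IKBKE difference was 0.82 and that of TNFAIP3 0.46.

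Other genes of the pathway were taken from 4 lists drawn up from general knowledge, with earlier results of these data known, each gene by its brightest probe set. The limma fit called 0 genes in any of the 4. Over all 19775 genes by their brightest probe sets, 9.56% had an unadjusted p under 0.05, which is the share to set beside the counts of the lists. Of the genes listed around activation of the IKK complex, not all of them activators, 14 of 15 had a probe set with a single symbol. Of these 11 lay above 0, the median was 0.03 and 1 had an unadjusted p under 0.05. That was MAP3K8, a kinase that IKK sets free from its inhibitor p105, at 0.29 (SE 0.0611, adjusted p = 0.0853), while a second probe set of it gave 0.07. It was called with array set as a block (adjusted p = 0.0131). The next 2 by p were MAP3K7, the kinase TAK1 that phosphorylates the IKKs, at 0.10, and the chaperone HSP90AB1 at -0.13.

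Of 12 adaptors, activators and substrates of TBK1 and IKBKE, 9 lay above 0 with a median of 0.05, and 1 had an unadjusted p under 0.05. OPTN, an autophagy receptor that TBK1 phosphorylates, was at 0.31 (SE 0.107, adjusted p = 0.424) and at 0.28 by a second probe set, and was called with the block at 0.40 (adjusted p = 0.00852). STING1 was at -0.12, with another probe set at 0.06, and IRF3, the interferon regulatory factor that both kinases phosphorylate, at -0.15 (SE 0.0832).

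Of the A20 partners and ubiquitin-editing proteins, 11 of 15 had a probe set with a single symbol. SPATA2, UBE2D3, UBE2L3 and RIPK1 had none. Of the 11, 6 lay above 0 and 5 below, with a median of 0.04 and 1 at an unadjusted p under 0.05. TAX1BP1, an adaptor that brings A20 to its targets, was at -0.21 (SE 0.0851, adjusted p = 0.521) with no overlap of its groups, and its other probe sets lay between -0.12 and 0.02. TNIP3, the third ABIN, was at 0.09 from a control mean of 5.83, near the floor of the values, and RBCK1, a subunit of the linear ubiquitin ligase, at -0.14. With the block 0 of these were called.

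Of the NF-kB inducible genes, 15 of 18 had a probe set with a single symbol, and BIRC3, CCL3 and BCL3 had none. Of the 15, 11 lay above 0 with a median of 0.16, and 5 had an unadjusted p under 0.05. In order of p, the first 3 were NFKBIE, an inhibitor of NF-kB, at 0.49 (adjusted p = 0.0572), the survival gene BCL2A1 at 0.39 and the adhesion molecule ICAM1 at 0.45, for which 1 of 2 other probe sets (0.17 and 0.48) was called. The other 2 of the 5, named after their values were seen, were NFKBIZ at 0.44 and RELB at 0.43, both above BCL2A1 by size. Adjusted p-values of the limma fit were 0.132 for BCL2A1, 0.159 for ICAM1, 0.212 for NFKBIZ and 0.344 for RELB. The groups of ICAM1 and RELB overlapped. With the block 4 were called, all higher. The 4 genes below 0 were REL at -0.13, CD83 at -0.04, CD40 at -0.01 and TRAF1 at -0.01. NFKBIA was at 0.16 (adjusted p = 0.9). The difference of TNFAIP3, 0.39, thus lies within the range of this list, -0.13 to 0.49, and that of IKBKE, 0.72, lies above it.

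**Figure D5:**
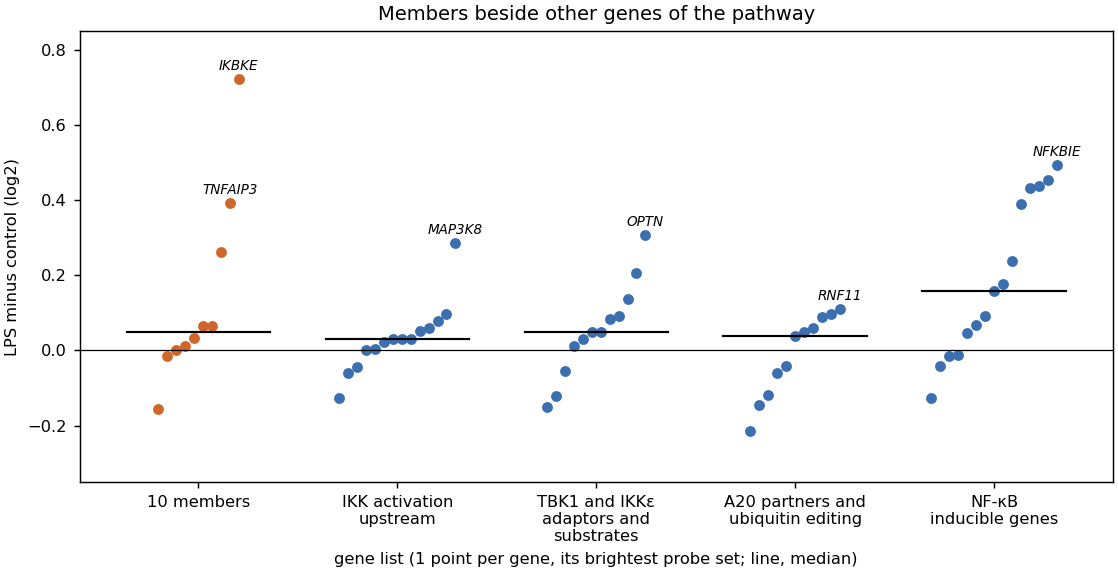
LPS minus control (vertical axis, log2) of the 10 members (orange) and of the genes of 4 pathway lists (blue), 1 point per gene by its brightest probe set; lines, medians. IKBKE at 0.72 is higher than every gene of the 4 lists, and the NF-kB inducible list has the highest median at 0.16.

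The cell line was checked by its markers. Of 8 B cell markers 7 had a probe set with a single symbol. All 7 lay above the 75th percentile of all probe sets, among them MS4A1, CD79A and PAX5. None of 6 monocyte and 5 T and NK cell markers reached that percentile, and 0 of either list were called. The mean over the B cell markers ran from 10.25 to 10.40 in controls and from 10.13 to 10.21 with LPS, and that over 3 germinal centre markers from 9.83 to 10.02 and from 9.43 to 9.61, with 1 called (MYBL1). Their part in the members' differences was not tested. Any pair of arrays correlated at 0.992 to 0.997, and the 6 arrays limit the precision, with a median SE of 0.0627.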

How the data were processed

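Each of the 3 control and 3 LPS samples was hybridised to 1 Affymetrix array. The authors deposited 1 value per probe set and array, taken here as log2 because the values ran from 5.46 to 14.81; their background correction, summary and normalization are not given in the sources used here. Dropping 62 Affymetrix controls kept 54613 probe sets. Symbols came from the platform annotation, updated by gene identifier through RefSeq. A gene's brightest probe set is that with the highest mean over all arrays.

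The fit was limma 3.58.1 in R 4.3.3 (two-sided, eBayes with trend, Benjamini-Hochberg over all tested probe sets, threshold 0.05). It was tested on simulated data: for LPS against control over 54613 probe sets, 67% of 100 probe sets changed by 0.6 and 96% of 100 changed by 1 were called. The noise was drawn independently for each probe set and array, without array sets. The changes were placed only in probe sets above the median level. The real arrays form sets, so these shares may not hold for them. The members and lists were chosen with earlier results of these data known. Named were all members, the called genes and the 3 smallest p of each pathway list, and the 5 most and 3 least alike in pattern to IKBKE and TNFAIP3. Alternatives were blocks on replicate number and array set, other normalizations, filters, priors, weights and thresholds, and leaving out each array.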

Additional observations from a re-analysis of the deposited data

How the results depend on the processing

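The number of probe sets called over the whole array was 144. It was 498 with the replicate block, 734 with array set as a block, 292 with quantile normalisation, 309 with array weights and 265 at a threshold of 0.1, and 10 to 374 with 1 array left out. Of the members 2 probe sets were called, 2 or 3 under each of the 8 other settings, and 0 to 4 with 1 array left out: 0 without control 3, 1 without LPS 2 and 4 without control 1. Same-numbered arrays deviated together in 2 of the 3 pairs (correlations 0.442, -0.0401 and 0.232 for numbers 1 to 3). Both arrays of number 1 were in set A and both of number 3 in set B, while number 2 had an array in each set. Since 3 of the 6 arrays correlated best with their own number, the numbers were not taken as pairs. IKBKE ran from 0.64 to 0.82 over its 15 alternatives and passed in 13. TNFAIP3 ran from 0.35 to 0.46 over 14 and passed in 5, among them the replicate block (adjusted p = 0.0207). CHUK, IKBKG and TNIP1 kept their sign in each alternative run and passed in 0. With groups that did not overlap, the signs of IKBKE, TNFAIP3 and CHUK could not turn when an array was left out.

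Signs turned in genes close to 0, none of them past the threshold in any setting. With array set as a block TNIP2 was at -0.0078 and CYLD at -0.031. With quantile normalisation TBK1 was at -0.023, TANK at -0.0061 and CYLD at -0.031, and with array weights TBK1 was at -0.017. With 1 array left out TBK1 ran from -0.022 to 0.052, IKBKB from -0.15 to 0.11, TANK from -0.012 to 0.061, TNIP2 from -0.025 to 0.15 and CYLD from -0.042 to 0.045. The cause was not tested. The alternative that takes probe sets without an _s_at or _x_at suffix could not be run for CHUK, IKBKB and TNFAIP3, which have none. No detection calls were used.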
